A study of Rattus norvegicus with 24 samples.

Results

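Cytokines given to Givinostat-treated INS1 cells for 6 h were followed by no called change in any of 758 miRs. The comparison set the 3 arrays titled 6h_Giv_Cyt against the 3 titled 6h_Giv_Ctrl, that is 6 of the 24 arrays of the series, chosen by those titles. INS1 is a rat insulinoma line used as a model of the insulin-secreting β-cell. Both groups were cultured for 48 h and then received 125 nM Givinostat (ITF2357) for 1 h, so the control group carried the inhibitor too. For the next 6 h, 6h_Giv_Cyt was exposed to IL-1β at 150 pg/ml together with IFN-γ at 0.1 ng/ml, and 6h_Giv_Ctrl to no cytokine. Small-RNA-enriched total RNA was hybridised to one-colour Agilent rat miR arrays with 16 spots per miR, and a signal below is the mean of those spots after quantile normalization, on the log2 scale. The question was which miRs the cytokines altered when lysine deacetylases (KDACs) were already inhibited. The deposited design text calls the 3 arrays of a group technical replicates while the methods speak of triplicates, so the SDs and p-values below may measure technical spread only.

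miRs are short RNAs that guide Argonaute proteins to messenger RNAs, chiefly by pairing of their seed, bases 2 to 8, and so lower the output of their targets. IL-1β activates NF-κB in β-cells, and miR-146a, miR-146b and miR-155 are well-known NF-κB-responsive miRs in many cell types. Givinostat is a broad KDAC inhibitor that protects β-cells from cytokine-induced death. miR-375 and miR-7 are abundant in islet endocrine cells, where miR-375 restrains insulin secretion and miR-7 proliferation.

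The mature sequences that the results turn on are printed 5′ to 3′ from RefSeq, with the seed in capitals and positions on GRCr8. Of the 758 miRs of the array, 685 had a mature sequence there. The first pair is shown because it is the best known cytokine-responsive pair and shares 1 seed. miR-146a-5p lies at chr10:28350053-28350074 on the minus strand within the lncRNA LOC134480673, and miR-146b-5p at chr1:255144874-255144897 on the plus strand within the span of C1h10orf95. Over the 22 bases of the shorter one, 20 are identical.
miR-146a-5p: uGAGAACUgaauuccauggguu
miR-146b-5p: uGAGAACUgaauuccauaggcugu

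The let-7 miRs carry 1 common seed, and they are shown because they formed the group whose calls depended on which arrays were used. let-7a-5p is encoded at chr8:50805219-50805240 and chr17:16320145-16320166, let-7c-5p at chr7:118683636-118683657 and chr11:29688127-29688148, let-7d-5p at chr17:16322273-16322294, and let-7e-5p at chr1:67350243-67350264, all on the plus strand. The first 2 of these differ from each other by 1 base, as do let-7a-5p and let-7e-5p, and whether probes read across members was not tested. let-7e-5p lies within the span of Spaca6.
let-7a-5p: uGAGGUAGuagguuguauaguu
let-7c-5p: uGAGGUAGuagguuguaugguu
let-7d-5p: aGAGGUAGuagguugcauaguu
let-7e-5p: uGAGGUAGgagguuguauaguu

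Among miRs with signal above background, miR-23b-3p, miR-22-3p, miR-129-2-3p and miR-30b-5p were the only ones whose 2 groups did not overlap. The 3 with a RefSeq sequence have different seeds. miR-23b-3p lies at chr17:1819405-1819425 on the minus strand within Aopep, miR-22-3p at chr10:60805387-60805408 on the plus strand, and miR-129-2-3p at chr3:100657405-100657426 on the minus strand.
miR-23b-3p: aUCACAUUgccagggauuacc
miR-22-3p: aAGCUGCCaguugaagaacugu
miR-129-2-3p: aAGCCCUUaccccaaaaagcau

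The last set is shown because these miRs were among those that differed widely between arrays of 1 group. miR-466b-2-3p and miR-466b-5p come from both arms of precursors within Sfmbt2, the former at chr17:72942475-72942495 on the minus strand and the latter also from there, at chr17:72942513-72942534. miR-29c-3p, which moved the opposite way, lies at chr13:109099412-109099433 on the plus strand within the lncRNA LOC102550527.
miR-466b-2-3p: aUAUACAUacacacauacaca
miR-466b-5p: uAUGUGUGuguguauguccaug
miR-29c-3p: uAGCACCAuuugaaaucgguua

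The scanner software marks spots that exceed the background, and a miR counted as above background on an array from 8 marked spots of its 16 upwards. On the 6 arrays 129 to 153 miRs were above background. Of all 758 miRs, 126 were above background throughout 1 or both of the compared groups, which is meant below by detected, 117 on all 6 arrays and 577 on none, and the other 55 lay between. The 75th percentile of the processed signal was 682, 401 and 311 on the 6h_Giv_Ctrl arrays and 386, 374 and 317 on the 6h_Giv_Cyt arrays, with overlapping groups (exact permutation test, two-sided p = 0.5, where 3 against 3 arrays allow no p below 0.1). No spot was saturated. The scanner slides differed between the groups: all 6h_Giv_Cyt arrays were on slide 3, 6h_Giv_Ctrl replicate 1 on slide 1 and replicates 2 and 3 on slide 2, so slide and cytokine cannot be told apart within the 6 arrays.

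One array of each group stood apart from the rest of its group. Over the 126 miRs above background, 6h_Giv_Ctrl replicates 2 and 3 correlated at r = 0.996, whereas replicate 1 correlated with them at 0.883 and 0.888. The same replicate 1 correlated at 0.977 and 0.964 with 6h_Giv_Cyt replicates 1 and 2. Conversely, 6h_Giv_Cyt replicates 1 and 2 correlated at 0.995, but replicate 3 was at 0.909 and 0.931 with them and at 0.987 and 0.984 with 6h_Giv_Ctrl replicates 2 and 3. These 2 arrays were thus each closer to arrays of the opposite label than to their own group. They were kept as labelled, and whether labels or RNA of the 2 arrays had been exchanged was not tested, a doubt that touches every log2FC and the count of calls below. Without both, 19 of the 50 named miRs changed the sign of their log2FC, and the values without them are given beside the miR lists and the leading miRs.

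Of the β-cell markers, miR-7a-5p, miR-375-3p and miR-204-5p were above background on all 6 arrays, and miR-184 was not detected. miR-7a-5p was at 11.18, 11.05 and 11.09 in 6h_Giv_Ctrl and 11.06, 11.05 and 10.81 in 6h_Giv_Cyt. miR-375-3p stood at 9.98, 9.96 and 10.26 against 10.10, 10.01 and 9.77. For both the groups overlapped. Of 22 islet and β-cell enriched miRs, 12 were above background. The markers of other cells were mostly near the background level, with none of 6 blood and immune miRs, none of 7 stromal and endothelial miRs and not the hepatocyte miR-122-5p detected. Of the 7 stromal and endothelial miRs, 5 were above background on none of the 6 arrays, and the others on some but not throughout either group. Blood and immune cell markers, with miR-451-5p, miR-142-3p and miR-223-3p among them, summed to 8.13 to 8.16 on the log2 scale in 6h_Giv_Ctrl and 8.15 to 8.18 in 6h_Giv_Cyt. Stromal and endothelial markers summed to 8.44 to 8.49 and 8.45 to 8.50. Of 6 muscle markers only miR-206-3p was above background, and that list summed to 8.38 to 8.62 in the control group and 8.48 to 8.75 with cytokines.

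With limma and Benjamini-Hochberg adjustment over all 758 miRs, 0 miRs passed an absolute log2FC above 0.14 (1.1-fold) and an adjusted p below 0.05, a background of 0%. At an unadjusted p below 0.05 there were 26 miRs, 10 higher and 16 lower with cytokines, and the lowest limma adjusted p was 0.634. Only 2 of these 26, let-7b-5p and miR-23b-3p, were detected. A limma fit to all 16 spots with a pooled correlation between them also gave 0 calls. The log2FC ran from −0.24 for miR-29b-3p to 0.26 for let-7e-5p, with a median of 0.03 and an SD of 0.11 over the 126 miRs above background, of which 73 had a positive and 53 a negative log2FC. The signs depended on the scaling. With processed signal scaled to detected miRs 100 of the 126 were positive and 26 negative, and scaled to all miRs 70 and 56. With slide 1 left out, 13 of the 50 named miRs changed sign.

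How small a change the 6 arrays could show differed between miRs. The 95% confidence interval of the log2FC reached a median of 0.29 to each side over these 126 miRs, which is a 1.22-fold change in signal. It was narrowest for miR-483-3p, at 0.06 to each side, and widest for miR-466b-2-3p, at 0.89. The whole interval lay within 0.25 of 0 for 17 of the 126 miRs, within 0.5 for 102 and within 1 for all 126. A 2-fold difference in signal therefore lay outside the interval of each of these 126 miRs, with all arrays as labelled. These intervals take 1 spread from all 8 groups and assume that the 6 arrays vary like the others. For miR-466b-2-3p the SD was 0.93 in 6h_Giv_Ctrl and 0.75 in 6h_Giv_Cyt, against 0.27 to 0.52 in the other groups. For such a miR the interval is too narrow for these 6 arrays, and a 2-fold difference is not excluded. The median reach exceeded the 1.1-fold threshold. These limits hold for signal and not for miR level. Without background correction, signals near the background are compressed, so that a 2-fold change in level can show as a smaller difference.

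**Figure D1:**
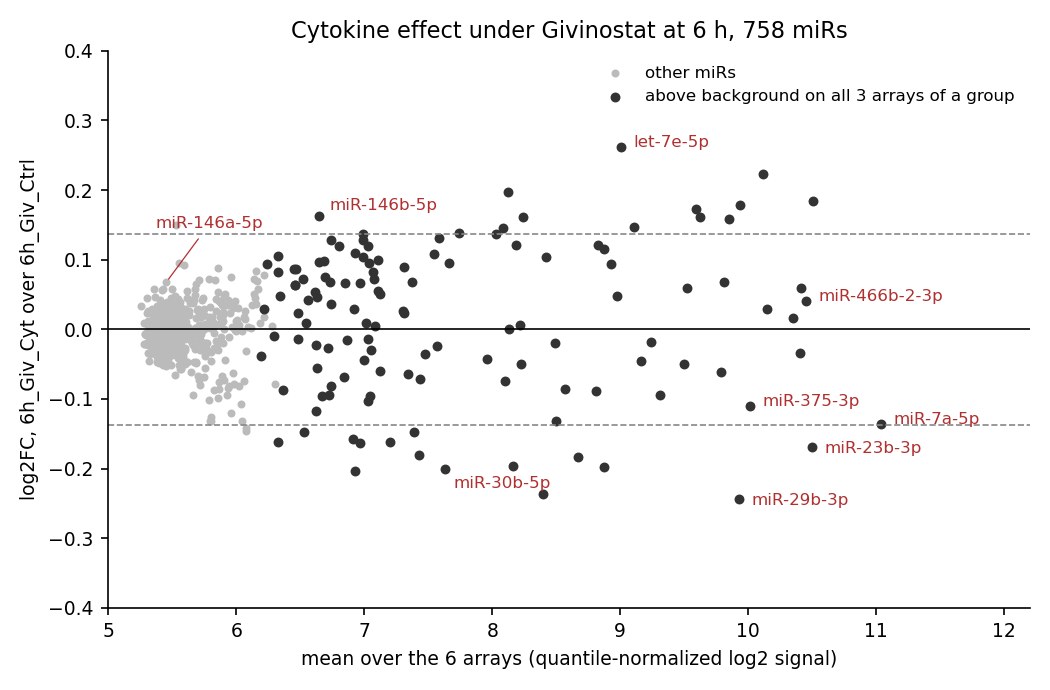
The log2FC of 6h_Giv_Cyt over 6h_Giv_Ctrl (vertical axis) is plotted for 758 miRs against the mean quantile-normalized log2 signal of the 6 arrays (horizontal axis), with the 126 miRs above background in black and dashed lines at the 1.1-fold threshold. The points lie between −0.24 and 0.26 at every signal level, and none passed the test.

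The cytokine-responsive miRs were examined first. miR-146a-5p, which dampens NF-κB signalling through IRAK1 and TRAF6, measured 5.41, 5.41 and 5.44 in 6h_Giv_Ctrl and 5.51, 5.48 and 5.47 in 6h_Giv_Cyt. The 3 cytokine arrays were all higher, by 0.07, but the miR was above background on none of the 6 arrays, so no fold is read from it (limma adjusted p = 0.998). Arrays with cytokines were all higher for 13 of the 758 miRs, or 1.72%, and all lower for 25, or 3.30%, and 34 of these 38 miRs were above background on no array.

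miR-146b-5p, its seed-sharing relative, was above background on 2 of the 3 control and all 3 cytokine arrays. It measured 7.07, 6.34 and 6.29 in 6h_Giv_Ctrl and 7.02, 6.81 and 6.36 in 6h_Giv_Cyt. The groups overlapped fully, since replicate 1 of the control group was the highest array, and the log2FC was 0.16 with a 95% interval from −0.23 to 0.55 (limma adjusted p = 0.998). Leaving out single arrays moved this value between 0.02 and 0.41, the latter without 6h_Giv_Ctrl replicate 1. Without both apart arrays it was 0.60, the highest of all 758 miRs in that fit, with a 95% interval from 0.30 to 0.89, and was not called (limma adjusted p = 0.0577). miR-155-5p, a pro-inflammatory miR of immune cells, was near background at 5.46, 5.43 and 5.51 against 5.44, 5.42 and 5.49.

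Among all 17 NF-κB and cytokine responsive miRs, 6 were above background, 0 were called, and the median log2FC was 0.00 beside 0.00 over all miRs. The 6 were miR-146b-5p, miR-21-5p, miR-132-3p, miR-212-3p, miR-125a-5p and miR-125b-5p. miR-21-5p, an anti-apoptotic miR, had the lowest log2FC of the list at −0.16 (7.72, 7.11 and 7.01 against 7.33, 7.19 and 6.83), and was at 0.20 without both apart arrays. Over the list that fit gave a median of 0.07, with 11 positive and 6 negative in place of 8 and 9, and 0 called. miR-132-3p and miR-212-3p, which come from 1 locus and share a seed, had log2FC of 0.01 and 0.10. miR-125a-5p was at 0.14 and miR-125b-5p at −0.02.

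These miRs were also compared with the cytokine effect without Givinostat at 6 h and under Givinostat at 24 h, which use other arrays. Without Givinostat, miR-146a-5p measured 5.44, 5.50 and 5.43 in 6h_Ctrl and 5.65, 5.62 and 5.59 in 6h_Cyt. These groups did not overlap, with a log2 difference of 0.16 in signal that was above background on no array (limma adjusted p = 0.0704). miR-146b-5p was at 6.52, 6.86 and 6.74 against 7.24, 6.96 and 7.26, with a log2FC of 0.44 (limma adjusted p = 0.999). The difference of the cytokine effect with and without Givinostat was −0.09 for miR-146a-5p, with a 95% interval from −0.19 to 0.00, and −0.28 for miR-146b-5p, from −0.83 to 0.27 (limma adjusted p = 0.999 for both). Without both apart arrays that of miR-146b-5p turned to 0.15, from −0.23 to 0.54 (limma adjusted p = 0.778).

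At 24 h under Givinostat, miR-146a-5p was at 5.45, 5.43 and 5.50 in 24h_Giv_Ctrl and at 6.15, 6.28 and 6.20 in 24h_Giv_Cyt, above background on all 3 arrays of the latter. It rose by at least 1.18-fold, a lower bound set against the dimmest signal above background, with measured means of 5.46 and 6.21 (limma adjusted p = 9.55e-12). miR-146b-5p was at 6.58, 6.73 and 6.90 against 7.22, 7.58 and 7.27 and did not pass the test after adjustment (log2FC 0.62, limma adjusted p = 0.150). The cytokine effect on miR-146a-5p under Givinostat was larger at 24 h than at 6 h by 0.68 on the log2 scale (SE 0.05, limma adjusted p = 1.53e-08). That difference passed the test in all 41 alternatives, with limma adjusted p between 1.03e-21 and 0.000274.

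**Figure D2:**
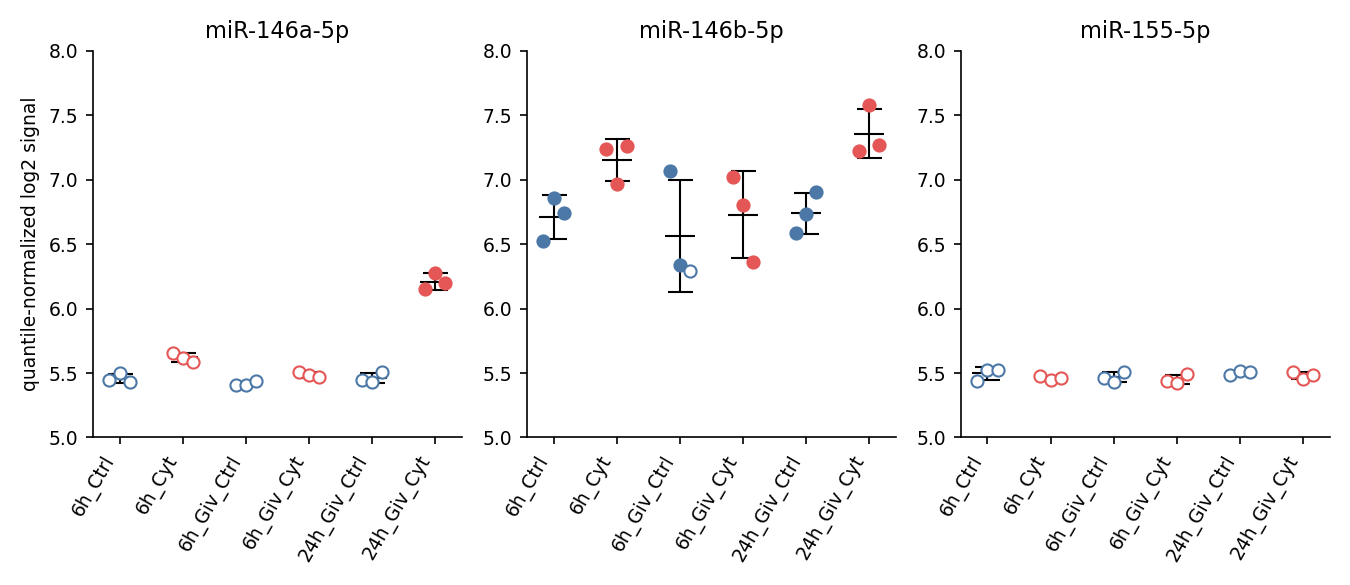
Quantile-normalized log2 signal (vertical axis) of miR-146a-5p, miR-146b-5p and miR-155-5p on each array of 6 groups (red with and blue without cytokines). Filled points were above background, open points were not, and bars give the mean ± SD of 3 arrays. Of the 6 groups drawn, which leave out both 24 h groups without Givinostat, miR-146a-5p was above background in 24h_Giv_Cyt, and miR-146b-5p overlapped between the 2 groups with Givinostat at 6 h.

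The 6 h and 24 h effects under Givinostat differed for 3 miRs, or 0.396% of the 758, and 4 miRs, or 0.528%, were called at 24 h. Besides miR-146a-5p, the difference concerned miR-93-5p and miR-3584-5p. miR-93-5p belongs to the miR-106b/25 cluster within Mcm7, which is linked to proliferation. At 6 h it measured 8.94, 8.84 and 8.87 in 6h_Giv_Ctrl and 9.08, 8.96 and 8.88 in 6h_Giv_Cyt (log2FC 0.09). At 24 h it fell from 9.08, 9.03 and 9.25 to 8.67, 8.74 and 8.83 (log2FC −0.38, limma adjusted p = 0.00842), so that the effects differed by −0.47 (SE 0.10, limma adjusted p = 0.0292).

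miR-3584-5p was above background on no 6 h array and on 2 of the 24h_Giv_Cyt arrays. Its 6 h signals were 5.84, 5.65 and 5.69 against 5.77, 5.69 and 5.67, and at 24 h they were 5.72, 5.74 and 5.72 against 5.92, 6.07 and 6.16. It rose at 24 h by at least 1.06-fold (measured means 5.73 and 6.05, limma adjusted p = 0.00305), and its effects differed by 0.35 on the log2 scale (SE 0.07, limma adjusted p = 0.0292). The difference of miR-93-5p lost its call when any of 8 single arrays was left out (limma adjusted p from 0.0626 to 0.0909), namely 24h_Giv_Ctrl replicates 1 and 3, 24h_Giv_Cyt replicates 1 and 2, 6h_Giv_Ctrl replicates 2 and 3 and 6h_Giv_Cyt replicates 1 and 2. That of miR-3584-5p lost it with any of 9, namely all of 24h_Giv_Ctrl, 24h_Giv_Cyt replicates 2 and 3, 6h_Giv_Ctrl replicates 1 and 3 and 6h_Giv_Cyt replicates 2 and 3 (limma adjusted p from 0.0590 to 0.104). miR-129-5p, the fourth miR called at 24 h, had a log2FC of −0.71 there and of 0.01 at 6 h, and the difference of the 2 did not pass (limma adjusted p = 0.139).

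Other miRs also had differences between 24 h and 6 h with a limma adjusted p below 0.05 but under the log2FC threshold. Among them, miR-6331 and miR-190a-5p were at −0.12 each, in signals above background on none of the 24 arrays (limma adjusted p = 0.0184 and 0.0292). Without Givinostat at 6 h, 0 of 758 miRs were called and 30 had an unadjusted p below 0.05 (limma). The difference of the cytokine effect with and without Givinostat gave 0 calls, with 12 miRs at an unadjusted p below 0.05 (lowest limma adjusted p = 0.999). The 3 with the lowest p were miR-374-5p at −0.12, miR-292-5p at 0.07 and miR-145-3p at 0.07, none of them above background on any array. Across the 126 miRs, the log2FC of the 6 h comparison under Givinostat correlated at −0.22 with that without Givinostat and at 0.06 with that at 24 h, which is a description across miRs.

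The 4 of 126 detected miRs without overlap between the groups all had lower signal with cytokines, and none passed the test. Over all 758 miRs the cytokine arrays were all lower for 25, or 3.30%, and all higher for 13, or 1.72%. The 4 of 126 thus lay near the share all lower over all miRs. miR-23b-3p had the tightest control group, at 10.59, 10.58 and 10.58 against 10.47, 10.53 and 10.24 (log2FC −0.17, SE 0.07, limma adjusted p = 0.998). The gap between the groups was small, and replicate 3 of 6h_Giv_Cyt lay far below the other two. miR-22-3p was at 8.87, 8.72 and 8.70 against 8.66, 8.68 and 8.40 (log2FC −0.18). miR-129-2-3p was at 8.43, 8.16 and 8.19 against 8.12, 8.10 and 7.98 (log2FC −0.20).

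miR-30b-5p was at 7.80, 7.67 and 7.73 against 7.53, 7.62 and 7.45 (log2FC −0.20, limma adjusted p = 0.998). Leaving out single arrays kept these 4 values negative, from −0.16 to −0.24 for miR-30b-5p and from −0.08 to −0.23 for miR-23b-3p. Without both apart arrays they were smaller, at −0.08 for miR-23b-3p, −0.04 for miR-22-3p, −0.07 for miR-129-2-3p and −0.12 for miR-30b-5p. All 5 miR-30 miRs measured, a family that limits epithelial dedifferentiation, had negative log2FC, from −0.20 to −0.02 with a median of −0.18, and 0 were called. With slide as a fixed block the median was −0.51. With both apart arrays left out it was 0.00 with 3 of 5 positive, with processed signals scaled to detected miRs it was −0.06 with 1 of 5 positive, and with median spots 1 of 5 was positive.

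The islet and β-cell enriched miRs had a median log2FC of −0.04 over 22 miRs, 7 positive and 15 negative, with 0 called, against a median of 0.00 over all miRs. Without both apart arrays the list turned, with a median of 0.04, 15 positive, 7 negative and 2 called, miR-130a-3p and miR-183-5p. That fit called 7 of all 758 miRs, or 0.923%. It left out 2 arrays for lying near the other group, so its calls are no independent evidence of a cytokine effect. With array weights 14 miRs of the list were positive and 8 negative. With all 6 arrays they ranged from −0.16 for miR-335 to 0.07 for miR-211-5p, which was not above background. miR-375-3p was at −0.11 and miR-7a-5p at −0.14. The miR-183 cluster, abundant in neuroendocrine and sensory cells, gave 0.00 for miR-183-5p, −0.13 for miR-96-5p and −0.03 for miR-182. miR-24-3p, miR-26a-5p, miR-148b-3p and miR-204-5p were at 0.06, −0.06, −0.08 and −0.12, and miR-130a-3p and miR-7a-2-3p were at 0.03 and 0.05.

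Among 13 miRs of β-cell stress and apoptosis, 2 were positive and 11 negative, with a median of −0.05 and 0 called. Without both apart arrays 10 were positive and 3 negative, with a median of 0.07 and 0 called. Array weights, which gave those same arrays low weight, gave 10 and 3. With all 6 arrays miR-29b-3p had the lowest value of all 758 miRs. It was at 10.32, 9.89 and 9.95 in 6h_Giv_Ctrl and 9.89, 10.04 and 9.50 in 6h_Giv_Cyt (log2FC −0.24, 95% interval from −0.58 to 0.09), so that the groups overlapped, and its log2FC was 0.04 without both apart arrays. Its seed-sharing relatives miR-29a-3p and miR-29c-3p, which act on matrix genes and, in β-cells, on Mcl1, were at −0.05 and −0.09, and at 0.25 and 0.36 without them. The miR-200 family members miR-141-3p and miR-200c-3p, which favour β-cell apoptosis, were at −0.20 and −0.03, and miR-153-3p was at −0.16. Of these, miR-141-3p was at 0.19 and miR-153-3p at 0.05 without both apart arrays.

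Of the 13 miRs that the study had sorted by their response to cytokines and Givinostat, a list chosen on these samples and thus not independent evidence, 0 were called at 6 h under Givinostat. Their log2FC ran from −0.15 for miR-384-5p to 0.16 for miR-146b-5p, 5 positive and 8 negative with a median of −0.07. Without both apart arrays 11 were positive and 2 negative, with a median of 0.15 and 0 called. miR-652-5p was at 0.12, miR-340-5p at −0.10, miR-101a-3p at −0.14 and miR-466b-2-3p at 0.04. Under Givinostat at 24 h, 2 of these 13 were called, miR-146a-5p and miR-3584-5p, beside 4 of all 758 miRs, or 0.528%. The study sorted most of the list by responses at 24 h, so its share there is no independent evidence. The 9 miRs of the miR-17/92 and miR-106b/25 clusters, which drive proliferation, ran from −0.05 to 0.09, and the 26 miRs of the imprinted Dlk1-Dio3 cluster, of which 24 were above background on no array of the 2 groups, from −0.05 to 0.07.

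The let-7 family, whose members repress growth and cell-cycle genes, had the highest log2FC. let-7e-5p was at 9.20, 8.77 and 8.65 in 6h_Giv_Ctrl and 9.33, 9.21 and 8.86 in 6h_Giv_Cyt, a log2FC of 0.26 with a 95% interval from −0.03 to 0.55 (limma adjusted p = 0.998). let-7c-5p, used as a reference miR in the study, was at 10.13, 9.74 and 9.67 against 10.16, 10.14 and 9.77 (log2FC 0.18). let-7a-5p was at 10.51, 10.37 and 10.36 against 10.77, 10.71 and 10.32 (log2FC 0.18).

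In each of these the groups overlapped, with replicate 1 of 6h_Giv_Ctrl the highest and replicate 3 of 6h_Giv_Cyt the lowest of its group. For let-7a-5p that cytokine replicate lay below every control array. let-7b-5p was at 0.22, let-7d-5p at 0.16, let-7g-5p at 0.15, let-7i-5p at 0.06 and let-7f-5p at −0.03. miR-98-5p, which shares the seed, was at 0.15. Over the list of 8 members, which holds miR-98-5p and not let-7g-5p, the median was 0.17, with 7 positive, 1 negative and 0 called, beside a median of 0.03 over the 126 miRs above background. Over all 9 miRs with this seed it was 0.16. Scaling the processed signal to detected miRs moved the median of the 126 to 0.22 and that of the let-7 list to 0.35, and without normalization they were −0.04 and 0.05, with 6 of the 8 positive. The other reference miRs above background, miR-103-3p and miR-107-3p, were at 0.16 and −0.09.

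When both arrays that stood apart were left out, 7 miRs were called, 0.923% of 758, all with higher signal with cytokines. The 2 were singled out for lying near the other group. Leaving them out thus widens the difference over the detected miRs as a whole by construction, though not for every miR. These 7 calls are therefore no independent evidence of a cytokine effect. With 2 arrays per group, the spread was taken from all groups, and this assumes that these arrays vary like the others. let-7c-5p was higher by 0.45 (SE 0.08, limma adjusted p = 0.00766), let-7d-5p by 0.43 (limma adjusted p = 0.00988), let-7a-5p by 0.38 (limma adjusted p = 0.0177) and let-7e-5p by 0.56 (limma adjusted p = 0.0270). miR-16-5p, an inhibitor of cyclins and BCL2, was higher by 0.41 (limma adjusted p = 0.00766), miR-130a-3p by 0.45 and miR-183-5p by 0.31 (limma adjusted p = 0.0177 for both). With all 6 arrays these 3 were at 0.07, 0.03 and 0.00.

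With limma's array weights, which gave 0.153 to 6h_Giv_Ctrl replicate 1 and 0.364 to 6h_Giv_Cyt replicate 3, 4 miRs were called, all higher. They were let-7c-5p, let-7d-5p, let-7e-5p and miR-203a-3p (limma adjusted p = 0.0250, 0.0250, 0.0474 and 0.0474), and the first 3 were also among the 7 above. miR-203a-3p was above background on none of the 6 arrays. The weights came from the spread around the same group labels, so they too widen the difference by construction. These calls are thus no independent evidence of a cytokine effect either. Leaving out only one of the 2 arrays gave 0 calls. Without 6h_Giv_Ctrl replicate 1, 38 miRs had an unadjusted limma p below 0.05 and the lowest adjusted p was 0.780. Without 6h_Giv_Cyt replicate 3 these were 31 and 0.223. The values of miR-16-5p show the arrangement, at 10.12, 9.64 and 9.57 against 10.03, 9.99 and 9.51, with the high and low signals occurring in both groups.

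**Figure D3:**
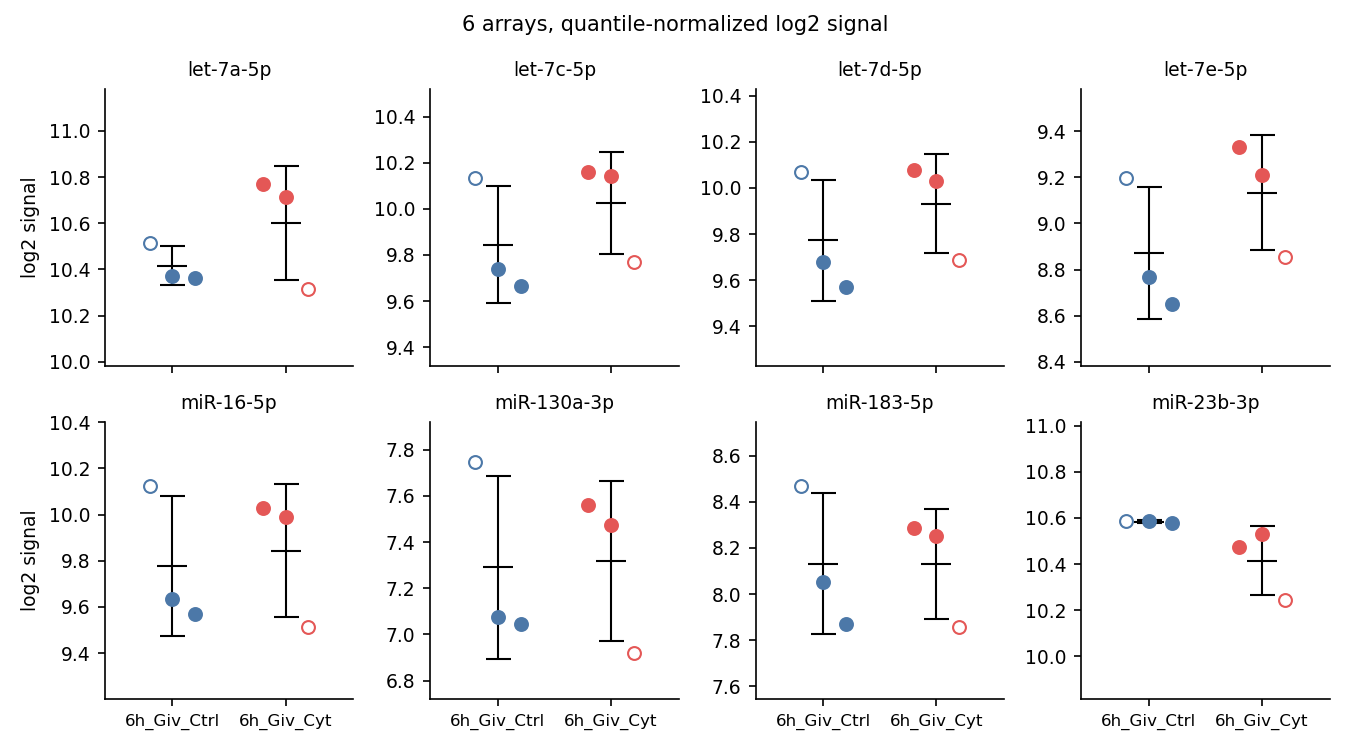
Quantile-normalized log2 signal (vertical axes, each spanning the same width) on the 3 arrays of 6h_Giv_Ctrl (blue) and 6h_Giv_Cyt (red) for the 7 miRs called without both apart arrays and for miR-23b-3p. Open points are those 2 arrays, and bars give the mean ± SD of all 3 arrays. In the 7 miRs the open control point is the highest of its group and the open cytokine point the lowest of its group, while in miR-23b-3p the groups do not overlap.

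The 2 arrays differed from their groups along 1 axis and in opposite directions. Over the 126 miRs, 6h_Giv_Ctrl replicate 1 differed from the mean of its other 2 arrays with an SD of 0.62, and 6h_Giv_Cyt replicate 3 from its other 2 with an SD of 0.51. The other 2 arrays of each group differed from one another with an SD of only 0.11 and 0.13. The 2 sets of differences correlated at r = −0.97 across miRs, as a description, and had opposite signs for 121 of 126.

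The miR-466 family held one end of that axis. miR-466b-2-3p was at 9.37, 10.99 and 10.95 in 6h_Giv_Ctrl and at 10.05, 10.03 and 11.34 in 6h_Giv_Cyt. miR-466b-5p was at 7.88, 9.45 and 9.53 against 8.51, 8.61 and 9.88. It is encoded by both Mir466b-1 and Mir466b-2, and the miR-466b-2-3p probes are also annotated to miR-466b-4-3p. The signals thus cannot be assigned to the arms of 1 precursor. miR-764-5p had the lowest difference in the control array, at −1.62, and miR-32-3p and miR-485-3p lay beside it.

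At the other end were miR-151-5p, higher by 0.77 in the apart control array, and miR-29c-3p, lower by 0.71 in the apart cytokine array. miR-29c-3p was at 9.03, 8.40 and 8.40 against 8.66, 8.86 and 8.05. miR-146b-5p and miR-21-5p were among the miRs higher in 6h_Giv_Ctrl replicate 1, by 0.75 and 0.66. Across the 117 miRs above background on all 24 arrays, the loading on this axis correlated at r = −0.06 with signal level. Over the 108 of them with a RefSeq sequence it correlated at 0.14 with GC content (Spearman 0.22), at 0.30 with the share of C and at −0.25 with that of G, all as descriptions.

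**Figure D4:**
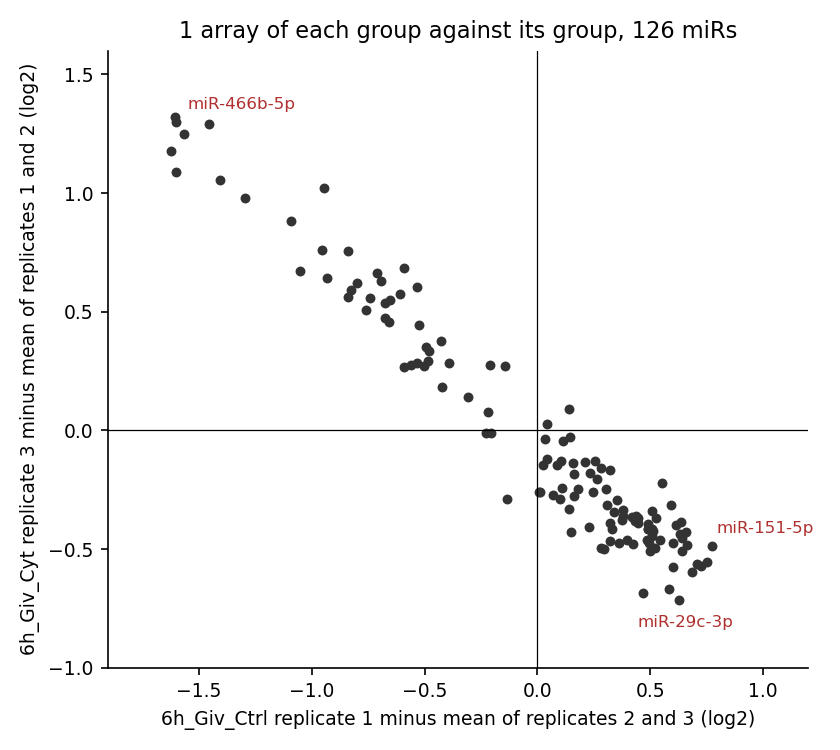
For the 126 miRs above background, the difference of 6h_Giv_Ctrl replicate 1 from the mean of its group's other 2 arrays (horizontal axis, log2) is plotted against that of 6h_Giv_Cyt replicate 3 from its group's other 2 (vertical axis, log2). The points run from upper left, with miR-466b-5p, to lower right, with miR-151-5p and miR-29c-3p, and 121 of 126 have opposite signs.

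On the first component of all 24 arrays, which held 68.3% of the variance over those 117 miRs, the 2 arrays were the lowest, at −3.97, and the highest, at 4.82. The other control arrays were at 2.91 and 2.69 and the other cytokine arrays at −1.21 and −0.38. A first component computed from the 18 arrays of the other groups alone held 50.03% of their variance, and the differences of the 2 arrays correlated with it across miRs at −0.95 and 0.95. The log2FC of the comparison correlated with it at 0.52 with all 6 arrays and at −0.88 without the 2. The 7 miRs called without the 2 arrays lay at ranks 49 to 79 of 117 from the lowest on that component, the let-7 miRs at 68 to 79. These let-7 miRs were still higher by 0.15 to 0.49 in the apart control array and lower by 0.37 to 0.43 in the apart cytokine array. What sets the position of an array on this axis was not tested.

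**Figure D5:**
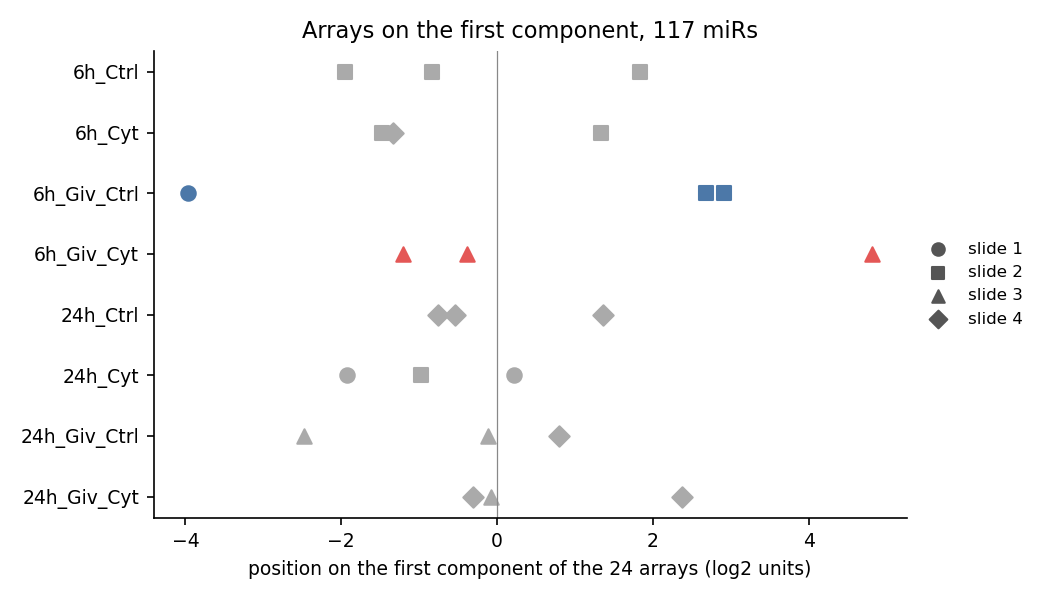
Position of each of the 24 arrays on their first component (horizontal axis, log2 units, 117 miRs) by group, with 6h_Giv_Ctrl in blue, 6h_Giv_Cyt in red, the other groups in grey and the symbol giving the slide. 6h_Giv_Ctrl replicate 1 at −3.97 and 6h_Giv_Cyt replicate 3 at 4.82 are the outermost of all arrays.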

How the data were processed

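For every array the authors deposited a scanner file made, per the file headers, by Feature Extraction 10.7.3.1 from Agilent (the labels name 9.1). These deposited intensities are the authors' scanner output, not normalized between arrays. The file holds the median, mean, background, processed and total intensity of each spot on a linear scale and marks for spots above background or saturated. A deposited table gives log2 values per miR, with column medians from 5.52 to 5.54. These log2 values equalled the median of the 16 quantile-normalized spots (median absolute difference 2.63e-10). Probe positions are on rn4.

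Median foreground intensities of 12128 miR spots per array were quantile-normalized over 24 arrays without background correction, after removal of 434 negative and 281 positive controls, log2-transformed and averaged over 16 spots. The test was limma 3.58.1 (R 4.3.3) on array means with a mean per group for 8 groups and 16 residual degrees of freedom, with Benjamini-Hochberg adjustment over 758 miRs per comparison. The study's fit over single spots was run as an alternative, since spots of 1 array share their RNA. Figures and tables were made with Python 3.11.15, and the fit was checked on simulated data.

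Named miRs were those called, detected miRs without overlap between groups, detected members of the cytokine, islet, stress, sorted and reference lists, the 3 with the lowest p per difference term and the 5 brightest. The let-7, miR-30, miR-466 and axis miRs were named after their values were seen. Members and lists were chosen with earlier results of these data known. Alternatives changed the foreground, background correction, scaling, summary over spots, miRs tested, slide and replicate blocks, samples fitted, array weights, arrays left out, input and threshold. The number of arrays limits the precision.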

Additional observations from a re-analysis of the deposited data

Results flagged for a closer look

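The cytokine effect under Givinostat differed between 24 h and 6 h, by limma's test of the difference itself, for 3 miRs. These were miR-146a-5p at 0.68, miR-3584-5p at 0.35 and miR-93-5p at −0.47 on the log2 scale. miR-146a-5p kept its call in all 41 alternatives, miR-93-5p in 24 of 41 and miR-3584-5p in 22 of 41.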

How the results depend on the processing

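The count of called miRs in 6h_Giv_Cyt against 6h_Giv_Ctrl was 0 in every alternative run except array weights (4) and both apart arrays left out (7), and 0 whenever a single array was left out. For the difference with and without Givinostat it was 1 with the pooled correlation over spots and 1 with the total signal per miR, where most miRs showed a difference of 0 because of the floor, and 0 in the other alternatives. For the difference between 24 h and 6 h, with 3 called, it was 13 with the pooled correlation, 12 with array weights, 32 without both apart arrays and 6 without a log2FC threshold. It was 1 each with normexp background correction, processed signal scaled to all miRs, detected miRs alone, slide as a fixed block, the compared groups alone and slide 1 left out, and 1 to 4 when single arrays were left out. With the replicate number as a block, the 3 counts were 0, 0 and 2. Same-numbered arrays of the 2 groups deviated together for replicates 1 and 3 (r = 0.97 and 0.92) but oppositely for replicate 2 (r = −0.84). This pattern follows from the 2 apart arrays, which deviated in opposite directions, so it cannot decide whether same-numbered arrays are paired. The number was not taken as a pairing. The difference of miR-93-5p was 0.12 without normalization between arrays, opposite in sign, and the cause was not tested. Signals near the background are compressed, so that log2 differences there understate changes.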
